A study of Homo sapiens with 15 samples.

Results

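Transcripts of 5 genes that bind, take up or route fatty acids, FABP3 (ENSG00000121769), FABP4 (ENSG00000170323), CD36 (ENSG00000135218), PDK4 (ENSG00000004799) and CROT (ENSG00000005469), were followed in WI-38 cells, a human fetal lung fibroblast line with a limited number of divisions. They were chosen by name with their signals in these libraries already known, and all 5 were found among the 4872 genes of the 4 deposited tables. Their differences from the PD45 control are therefore given as a description, with no test. Both FABP genes were present in all 4 tables, which only 22 genes were. CD36 was present in 3 tables, PDK4 in the GW8510 table and CROT in the siSRC4 table.

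RNA sequencing covered 15 libraries in 5 groups of 3. The groups were a PD30 control with DMSO and the lipofection reagent, PD45 cells with DMSO and the siRNA named siSRC2 in the titles, PD45 cells with DMSO and siSRC4, PD45 cells with GW8510 and NC, and the PD45 control with DMSO and NC. NC is read as a negative-control siRNA and PD as population doublings, and every group received the lipofection reagent. PD30 and PD45 control cells differ in passage and in NC, and the GW8510 and PD45 control groups differ in the compound and in DMSO, so these cannot be told apart. GW8510 is known as a kinase inhibitor of the cyclin-dependent kinases, and its dose and duration are not in the labels. Whether libraries within a group are separate cultures is not in the labels, so every SD below is the spread between libraries and may be technical.

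Fatty acids enter cells in part through CD36, a scavenger receptor of the plasma membrane that binds long-chain fatty acids and oxidized lipoproteins. Inside the cell they are carried by small fatty acid binding proteins, of which FABP3 is the heart and muscle form and FABP4 the form of adipocytes, macrophages and some endothelial cells. CROT attaches medium-chain fatty acids made in peroxisomes to carnitine, and PDK4 phosphorylates and so inhibits the pyruvate dehydrogenase complex, which spares glucose when fatty acids are burned. FABP4, CD36 and PDK4 are textbook targets of the PPAR nuclear receptors.

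The regions before transcription starts are shown for FABP3, which was lower than the PD45 control in every table, and for CD36, the one gene that also stood higher. Of the CD36 windows, those that hold the letters marked below were chosen. RefSeq windows (GRCh38.p14) matched 4 of the 5 genes by symbol, with 6 windows for CD36 and 1 each for FABP3, PDK4 and CROT. Each sequence is the 250 bases before a start, read 5′ to 3′ on the strand of the gene, and capitals mark the letters TATTTAA, a variant of the core promoter element known as the TATA box. This run was looked for after the sequences had been seen.
FABP3, chr1:31373077-31373326, minus strand: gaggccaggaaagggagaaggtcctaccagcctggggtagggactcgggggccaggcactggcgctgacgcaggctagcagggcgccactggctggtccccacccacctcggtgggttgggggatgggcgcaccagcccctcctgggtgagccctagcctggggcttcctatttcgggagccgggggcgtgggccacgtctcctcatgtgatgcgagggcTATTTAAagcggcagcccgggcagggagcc
CD36, chr7:80601957-80602206, plus strand: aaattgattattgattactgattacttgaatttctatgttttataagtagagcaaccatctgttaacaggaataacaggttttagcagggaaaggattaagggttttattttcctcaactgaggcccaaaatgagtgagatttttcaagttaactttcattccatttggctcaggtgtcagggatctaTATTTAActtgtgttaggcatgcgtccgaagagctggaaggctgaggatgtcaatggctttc
CD36, chr7:80638392-80638641, plus strand: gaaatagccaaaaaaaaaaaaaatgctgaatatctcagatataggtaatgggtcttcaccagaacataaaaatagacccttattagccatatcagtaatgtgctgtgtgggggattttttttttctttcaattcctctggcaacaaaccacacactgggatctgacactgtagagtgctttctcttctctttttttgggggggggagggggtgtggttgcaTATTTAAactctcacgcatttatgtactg

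The TATTTAA run began 30 bases before the FABP3 start, and 62 and 29 bases before the starts of the 2 CD36 windows. On either strand it was found in 3 of the 9 windows of these genes and in 4.52% of all 35116 promoter windows of 300 bases (250 before to 50 after the start). The run was picked from these sequences, and 6 of the windows are of CD36, some of them overlapping. Nothing is therefore read from the difference between these shares. On the sense strand, between 25 and 35 bases before the start, 0.282% of all windows held it. The FABP3 region was rich in G and C (69.2%), as were those of PDK4 (62.8%) and CROT (70.8%), while the 2 CD36 regions shown had 37.2% and 39.2%. The letters AGGTCA, the half-site that PPAR and its RXR partner are known to bind, were in none of the 9 windows on either strand, against 13.8% of all windows. The full PPAR element DR1, a direct repeat that contains this half-site, could then be in none of them, and was in 8 of all 35116 windows. With only 9 windows, and none matched to FABP4, these absences decide nothing about PPAR binding. No other stretch of these genes was searched.

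The target of the siRNAs was lower in both knockdown groups, with an SRC signal of 11.3 ± 0.580 with siSRC2 and 10.8 ± 1.16 with siSRC4, against 19.8 ± 0.766 in the PD45 control (SD, n = 3 libraries here and throughout). Signal is the deposited normalized expression value, which the headers do not identify as TPM or FPKM. Levels are therefore compared between groups for one gene and not between genes, and read depth is unknown. Each table holds only genes that the authors called, at an adjusted p under 0.05 and a fold change of at least 1.5, so a gene outside a table has no value here and is not shown to be unchanged. All 4 comparisons share the 3 PD45 control libraries. In bulk RNA, fewer cells with a transcript and less transcript per cell cannot be told apart.

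FABP4 was lower than the PD45 control in all 4 groups, and the libraries of no pair of groups overlapped. Its signal was 19.88, 23.61 and 25.57 in PD30 cells, 64.15, 67.87 and 52.98 with siSRC2, 31.64, 28.11 and 27.86 with siSRC4, and 42.19, 41.78 and 32.9 with GW8510, against 90.47, 92.47 and 88.87 in the PD45 control. The groups thus ran, from low to high, PD30, siSRC4, GW8510, siSRC2 and PD45 control. The smallest gap, between the lowest GW8510 library and the highest siSRC4 library, was 1.26 signal units. Next came 2.29 units between siSRC4 and PD30, so the order of PD30, siSRC4 and GW8510 rests on small distances. An antisense gene, AC018616.1, overlaps FABP4 in GENCODE v29, and without known strand use their reads cannot be told apart. Mean signal was 25.4% of the control in PD30 cells, 68.1% with siSRC2, 32.2% with siSRC4 and 43.0% with GW8510. By log2 fold change, the authors' deposited table put FABP4 at -1.95 for PD30, -0.60 for siSRC2, -1.67 for siSRC4 and -1.09 for GW8510.

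The siRNAs left similar SRC signals and different FABP4 signals. FABP4 averaged 29.2 ± 2.11 with siSRC4 and 61.7 ± 7.75 with siSRC2, a 2.11-fold lower mean with siSRC4. Among the genes that the authors' deposited table gives as lower, FABP4 was 17th of 709 by fold change with siSRC4 and 141st of 158 with siSRC2. The siSRC2 fold change of 1.52 lay just inside the limit of 1.5.

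FABP3 was also listed as lower in every table, and its libraries spread more widely. In PD30 cells its signal was 2.45, 2.68 and 4.02, against 25.74, 24.78 and 17.28 in the PD45 control. All 3 PD30 libraries were below every other library of the series, at a mean of 13.5% of the control. With siSRC2 the values were 12.55, 10.81 and 8.15, and with siSRC4 they were 13.78, 9.48 and 10.48. These groups overlapped each other and both lay below the control, at 46.5% and 49.8% of its mean. With GW8510 the signal was 19.75, 12.12 and 10.43, and its highest library was above the lowest control library. The mean was 62.4% of the control, and the groups overlapped. With 1 library left out, the ratio of these means ran from 0.499 (without GW8510 library 1) to 0.705 (without GW8510 library 3). By log2 fold change, the authors' deposited table put FABP3 at -3.01 for PD30, -1.11 for siSRC2, -0.89 for siSRC4 and -0.65 for GW8510.

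The order of the FABP3 groups from low to high was PD30, siSRC2, siSRC4, GW8510 and PD45 control, and only PD30 did not overlap its neighbour. FABP3 and FABP4 therefore placed the siRNAs differently. FABP4 was 2.11-fold lower with siSRC4 than with siSRC2, while the FABP3 means with siSRC4 and siSRC2 were 11.2 ± 2.25 and 10.5 ± 2.22, within the spread.

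**Figure D1:**
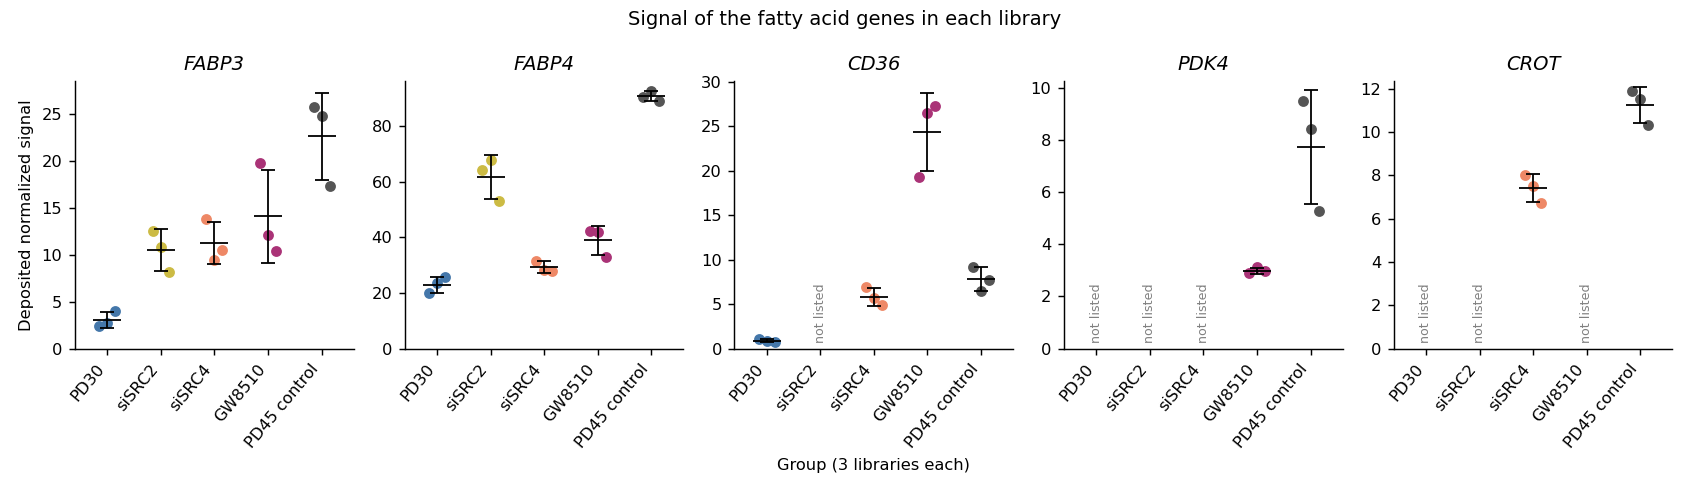
Deposited normalized signal (vertical axis, linear from 0) of FABP3, FABP4, CD36, PDK4 and CROT in each library (points) by group, with the mean and SD (bars, n = 3). FABP4 groups do not overlap, CD36 with GW8510 lies above the PD45 control at 19.32 to 27.24, and a group in whose table a gene is absent is marked as not listed.

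CD36 was the one gene of the 5 that stood on both sides of the PD45 control. With GW8510 its signal was 19.32, 26.45 and 27.24, against 9.24, 6.51 and 7.73 in the control, a 3.11-fold higher mean with no overlap. In PD30 cells it was 1.11, 0.85 and 0.74, or 11.5% of the control mean. The GW8510 cells thus stood further from PD30 cells than the control did, with a mean 27.0-fold that of PD30 cells (24.3 ± 4.36 against 0.900 ± 0.190). The PD30 mean is near 0 and read depth is unknown, so the size of this ratio is uncertain. By log2 fold change, the authors' deposited table put CD36 at 1.69 for GW8510, 40th of the 715 higher genes, and -3.07 for PD30, 138th of the 1314 lower genes.

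With siSRC4 the CD36 signal was 6.92, 5.65 and 4.93, and the highest of these exceeded the lowest control library. The mean was 74.5% of the control, a log2 signal ratio of -0.42, while the authors' deposited table gave -0.82. No other member differed as much between these measures. A gap from the table's median at least as large was found for 6.64% of the 1280 genes listed for siSRC4. CD36 has several transcription starts, of which RefSeq gives 6, and it overlaps the gene GNAT3 and 3 non-coding or pseudogene entries on the opposite strand in GENCODE v29. Strand use is not given in the sources used here, and the part of overlap or of transcript choice in this gap was not tested. CD36 was not listed for siSRC2.

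**Figure D2:**
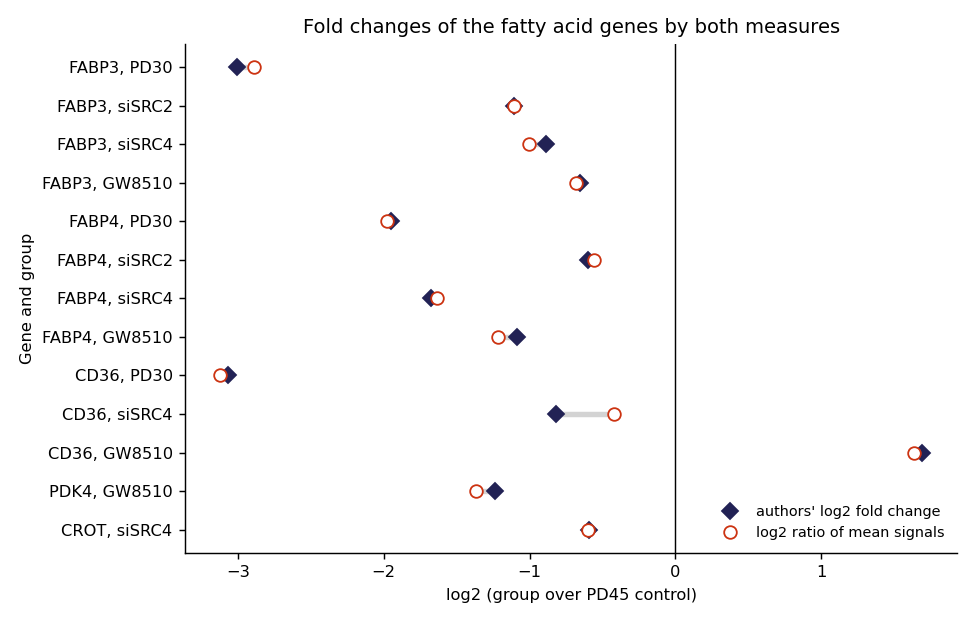
Log2 fold change of each gene over the PD45 control (horizontal axis) by the authors' deposited fold change (diamonds) and by the ratio of mean signals (circles), one row per gene and group. The measures lie close together except for CD36 with siSRC4, at -0.82 and -0.42.

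PDK4 and CROT each had values in one treated group. PDK4, the kinase that switches off pyruvate dehydrogenase, had a signal of 2.89, 3.11 and 2.97 with GW8510, against 9.47, 8.42 and 5.29 in the PD45 control. The GW8510 libraries were nearly equal and all lay below the control libraries, which spread more widely. The mean was 38.7% of the control, and the authors' deposited table gave a log2 fold change of -1.24. CROT, the peroxisomal carnitine acyltransferase, had 8.03, 7.49 and 6.71 with siSRC4, against 11.89, 11.54 and 10.3 in the control. Its groups did not overlap, the mean was 65.9% of the control, and its fold change of 1.51 in the authors' deposited table (control over siSRC4) was just inside the limit. Control library 3 held the lowest control signal for 4 of the 5 genes, all but CD36. The share of all listed genes for which this holds was not computed, so nothing is read from it.

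In total the genes made 13 entries in the tables, 12 lower and 1 higher, and 11 entries showed no overlap between the 2 groups. Over all listed genes the groups were apart for 2662 of 2845 with PD30, 300 of 331 with siSRC2, 1136 of 1280 with siSRC4 and 1671 of 1845 with GW8510. The rule used these same contrasts, so nothing is read from the counts, and the background is given for orientation. Of the genes the authors tested, 7.07% were listed as lower for PD30 (3 of the 5 genes here), 1.26% for siSRC2 (2 of 5), 4.86% for siSRC4 (4 of 5) and 7.26% for GW8510 (3 of 5). As higher, 8.24% were listed for PD30, 1.38% for siSRC2 and 3.91% for siSRC4 (0 of 5 each), and 4.59% for GW8510 (1 of 5). Over the genes listed for GW8510, the authors' log2 fold change exceeded the log2 signal ratio by a median of 0.12. Relative to that shift the GW8510 signals of FABP4 and PDK4 stand slightly closer to the control, at the authors' log2 values of -1.09 and -1.24 against signal ratios of -1.22 and -1.37.

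Genes with the most similar course were sought by the Pearson correlation of log2(signal + 1) with each gene over the libraries of all tables that list it. The libraries form a few groups and share the control, so these values are descriptions. Over 15 libraries and 21 other genes, FABP4 was closest to IL7R, the interleukin-7 receptor chain (r = 0.95), then to the neuronal leucine-rich repeat gene LRRN3 (r = 0.80) and to FABP3 (r = 0.78). IL7R had a signal of 15.5 in PD30 cells, 24.3 with siSRC2, 17.2 with siSRC4 and 21.9 with GW8510, against 37.6 in the control. That is the same order of groups as FABP4. LRRN3 parted from FABP4 with siSRC2, at 32.3 against 20.4 in the control.

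FABP3 was closest to PSG1 (r = 0.94) and LCE2C (r = 0.94), whose levels are uncertain because each has near-identical relatives, and to ANKRD1, a muscle ankyrin repeat gene (r = 0.82). FABP3 also has a processed pseudogene, FABP3P2, with which reads could be shared. ANKRD1 averaged 0.343 in PD30 cells, 3.13 with siSRC2, 11.5 with siSRC4 and 10.2 with GW8510, against 7.28 in the control, so it stood on the other side of the control from FABP3 with siSRC4 and GW8510. For CD36, over 12 libraries and 127 other genes, the closest were ATCAY (r = 0.95), GSG1 (r = 0.95) and MAOA (r = 0.94). Taken over deviations from the group means, r with CD36 was 0.47 for ATCAY, -0.20 for GSG1 and 0.21 for MAOA, so the likeness of GSG1 and MAOA lies in the group means. On the same deviations, r with FABP4 was 0.51 for IL7R, 0.38 for LRRN3 and 0.74 for FABP3. For FABP3 it was 0.63 with PSG1, 0.54 with LCE2C and 0.78 with ANKRD1. MAOA, the mitochondrial monoamine oxidase A, had 5.40 in PD30 cells, 8.12 with siSRC4 and 21.0 with GW8510, against 14.3 in the control. FABP3 and FABP4 came 13th and 24th by likeness to CD36, with r of -0.36 and -0.33 over deviations from the group means.

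Beyond these 5 genes, 172 genes in 9 lists of fatty acid handling were examined, and their share listed was at or below that of all genes tested in each table. In PD30 cells 12 were higher and 9 lower, or 12.2% of the 172, against 15.3% of all genes tested. With siSRC2 only ACOT11 was listed, which is 0.581% against 2.64%. With siSRC4, 9 were higher and 5 lower, or 8.14% against 8.77%. With GW8510, 6 were higher and 10 lower, or 9.30% against 11.8%. Which of the 172 the authors tested is not in the tables. Any untested genes lower the share of the lists, so the shares are not strictly comparable. The counts for single lists below stand beside these same shares, and nothing is read from them. The median authors' log2 fold change of those listed was 0.64 for PD30, 0.72 for siSRC4 and -0.68 for GW8510, beside 0.64, -0.61 and -0.65 over all genes listed. The listed genes were re-tested with limma on log2(signal + 1), which is conditional on the authors' selection, and 16 of 18 genes that entered passed for PD30, 1 of 1 for siSRC2, 13 of 14 for siSRC4 and 14 of 15 for GW8510 at an adjusted p under 0.05. Nearly all listed genes that entered passed it, 2197 of 2258 for PD30, 296 of 310 for siSRC2, 1096 of 1170 for siSRC4 and 1551 of 1625 for GW8510, so passing says nothing particular about these lists. Genes of the 9 lists called higher or lower below passed it unless a p above that or a signal too low to enter is given. The limma p-values below come from the same libraries as the authors' selection. They therefore describe the differences and lend no separate support.

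In PD30 cells the receptor PPARG stood on the other side of the control from FABP4 and CD36. PPARG, the receptor known to drive FABP4 and CD36 in adipocytes, had 36.72, 33.89 and 34.1 in PD30 cells, against 20.54, 23.56 and 24.87 in the PD45 control. The PD30 libraries were all above the control (limma, adjusted p = 0.000239). CEBPD and CEBPB, transcription factors of early fat cell differentiation, were also higher in PD30 cells, at 141 ± 24.2 against 59.0 ± 2.60 and at 67.0 ± 13.4 against 43.5 ± 6.92. CEBPD was as high with GW8510 (141 ± 47.0, adjusted p = 0.000545 by limma), where CD36 was higher and FABP4 lower. FOXO1 was near 0 in PD30 cells and the control, at 0.0267 and 0.140, too low to enter the re-test. These were 4 of 20 list members for PD30 and 1 of 20 for GW8510, and no member was listed for either siRNA.

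Other known PPAR targets went several ways. OLR1, a scavenger receptor for oxidized lipoproteins like CD36, was picked out after its values were seen because it took the same sides as CD36. Its signal was 13.9 ± 0.566 in PD30 cells, 12.6 ± 2.68 with siSRC4 and 59.2 ± 3.28 with GW8510, against 35.02 ± 2.03 in the control (limma, adjusted p = 1.25e-06, 0.000232 and 0.000118). Because OLR1 was chosen for these values, the p-values lend no weight to its likeness with CD36. ANGPTL4, an inhibitor of lipoprotein lipase, was lower in PD30 cells (45.8 ± 6.83) and with GW8510 (41.0 ± 8.02) and higher with siSRC4 (139 ± 17.9), against 81.8 ± 11.9 in the control. Its PD30 value is added to the rule after it was seen. All 3 ANGPTL4 differences passed the limma re-test (adjusted p = 0.000247, 0.000317 and 0.00138). HMOX1, heme oxygenase, was higher in PD30 cells, at 52.57, 49.21 and 52.77, and with siSRC4, at 38.1 ± 3.84, against 21.8 ± 3.23 in the control. MMP1, the interstitial collagenase, was lower with GW8510, at 3.92 ± 0.841 against 23.8 ± 8.15. UCP2, a mitochondrial carrier, passed for PD30 (7.45 ± 0.155 against 4.30 ± 1.53, limma, adjusted p = 0.00745). With GW8510 UCP2 was 6.02 ± 0.274 and did not pass (limma, adjusted p = 0.0552).

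In the carnitine shuttle, beside CROT, transporters and the muscle carnitine palmitoyltransferase CPT1B were listed. CPT1B had 0.82, 0.72 and 1.73 with GW8510 and 7.43, 7.51 and 4.94 with siSRC4, against 5.08, 3.2 and 3.18 in the control. It was lower with GW8510 without overlap, and higher with siSRC4 with 1 siSRC4 library below the highest control (limma, adjusted p = 0.00052 and 0.0128). In PD30 cells CPT1B was 2.83 ± 0.795 and did not pass the re-test (limma, adjusted p = 0.137). SLC22A5, the carnitine importer OCTN2, was higher with siSRC4 (6.16 ± 0.611) and with GW8510 (5.93 ± 0.879), against 3.99 ± 0.690 in the control. Its GW8510 difference did not pass without GW8510 library 3 (limma, adjusted p = 0.0567, against 0.0130 with it). SLC22A4, its relative OCTN1, was higher with siSRC4 (9.17 ± 1.79 against 5.33 ± 0.132). With siSRC4 these were 3 of 13 list members, all higher, while CROT was lower. Of all genes tested, 8.77% were listed for siSRC4 and 3.91% as higher, and nothing is read from so few genes.

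Of 24 other uptake and activation genes, 3 were listed as higher and 1 as lower for PD30, 2 as lower for siSRC4 and 1 as lower for GW8510. Of 15 other acyl-binding genes, 1 was listed as higher for PD30 and 1 as lower for siSRC4. With siSRC4, CAV1 and CAV2, the caveolins of lipid-rich membrane pits in which CD36 is found, were lower at 210 ± 12.4 against 406 ± 28.6 and at 67.8 ± 5.38 against 104 ± 4.89 (limma, adjusted p = 0.000232 and 0.000856). DBI, the acyl-CoA binding protein, was lower with siSRC4 as well (271 ± 44.4 against 442 ± 34.5). In PD30 cells VLDLR, a lipoprotein receptor, was higher at 5.01 ± 0.343 against 0.930 ± 0.0954. SLC27A5, a fatty acid transport protein and bile acyl-CoA synthetase, was higher there too (7.52 ± 2.29 against 2.98 ± 0.854), and ACSS2, which activates acetate, was lower (25.8 ± 3.14 against 42.0 ± 0.654). ACBD7, an acyl-CoA binding protein relative, was listed as higher in PD30 cells at a signal too low to enter the re-test, 0.477 against 0.167. ACSL5, a long-chain acyl-CoA synthetase, was lower with GW8510 (1.47 ± 0.0850 against 2.92 ± 0.391). No other FABP gene was listed in any table.

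Around PDK4, the pyruvate dehydrogenase list held 1 listed gene for each of 2 groups. PDK1, a kinase of the same complex, had 8.94, 9.45 and 12.54 with GW8510, against 17.01, 15.39 and 15.29 in the control. Like PDK4 it was lower without overlap (limma, adjusted p = 0.00232), and the genes of the complex itself were not listed. MPC2, a subunit of the mitochondrial pyruvate carrier, was lower in PD30 cells (48.9 ± 1.77 against 77.1 ± 6.73).

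Of 29 genes of mitochondrial fatty acid oxidation, 1 was listed for PD30, 1 for siSRC2, 2 for siSRC4 and 2 for GW8510, and of 19 peroxisomal genes, 3 for PD30 and 1 for GW8510. With GW8510, ACADM, the medium-chain acyl-CoA dehydrogenase, was lower (5.55 ± 0.728 against 10.4 ± 0.455). ECI1, an enoyl-CoA isomerase, was higher (59.4 ± 5.72 against 33.8 ± 4.02), and the peroxisomal oxidase ACOX2 was lower with overlap (5.49 ± 1.80 against 7.76 ± 1.03). The ACOX2 difference passed narrowly (limma, adjusted p = 0.0469) and not without GW8510 library 2 or without control library 1 or 3 (adjusted p up to 0.200). With siSRC4, ACAD10 was higher (10.5 ± 0.229 against 6.45 ± 0.497) and ACAA2, the last thiolase step, lower (21.8 ± 1.98 against 32.9 ± 1.03). With siSRC2, ACOT11, an acyl-CoA thioesterase, was lower (1.33 ± 0.0529 against 2.13 ± 0.577), and it did not pass without control library 1 (limma, adjusted p = 0.0710, against 0.0175 with it). In PD30 cells the peroxisomal genes PECR, a trans-enoyl-CoA reductase, and PEX11A, a peroxisome division factor, were higher (9.33 ± 2.34 against 3.15 ± 0.482, and 3.02 ± 0.689 against 1.45 ± 0.0755), and ABCD2, a peroxisomal fatty acyl transporter, was listed as lower at a signal too low to enter the re-test (0, 0.02 and 0 against 0.06, 0.09 and 0.08). ACACB, whose product restrains carnitine palmitoyltransferase, was listed as higher in PD30 cells with overlapping libraries, and did not pass the re-test (limma, adjusted p = 0.174, from 0.0155 to 0.532 with one library left out).

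Of 24 lipid droplet genes, 1 was listed as lower for PD30, 3 as higher for siSRC4, and 1 as higher and 2 as lower for GW8510. PNPLA3, a lipid droplet lipase, was 2.63 ± 0.561 in PD30 cells and 11.4 ± 0.487 with siSRC4, against 5.92 ± 1.19 in the control. DGAT2, a triglyceride synthesis enzyme, was listed as lower with GW8510 at 0.547 against 1.29, too low to enter the re-test, and with siSRC4 it stood at 2.12 ± 0.661 with overlap. The siSRC4 difference of DGAT2 missed the threshold in the limma re-test (adjusted p = 0.0518) and passed with the library number as a block (adjusted p = 0.0143). GPAT3, a glycerol phosphate acyltransferase, was higher with siSRC4 (5.26 ± 2.01 against 2.51 ± 0.551). With GW8510, FITM2, a lipid droplet assembly protein, was higher (18.5 ± 0.481 against 12.0 ± 0.660) and ABHD5, the activator of the main triglyceride lipase, lower (12.8 ± 1.02 against 19.9 ± 1.98).

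**Figure D3:**
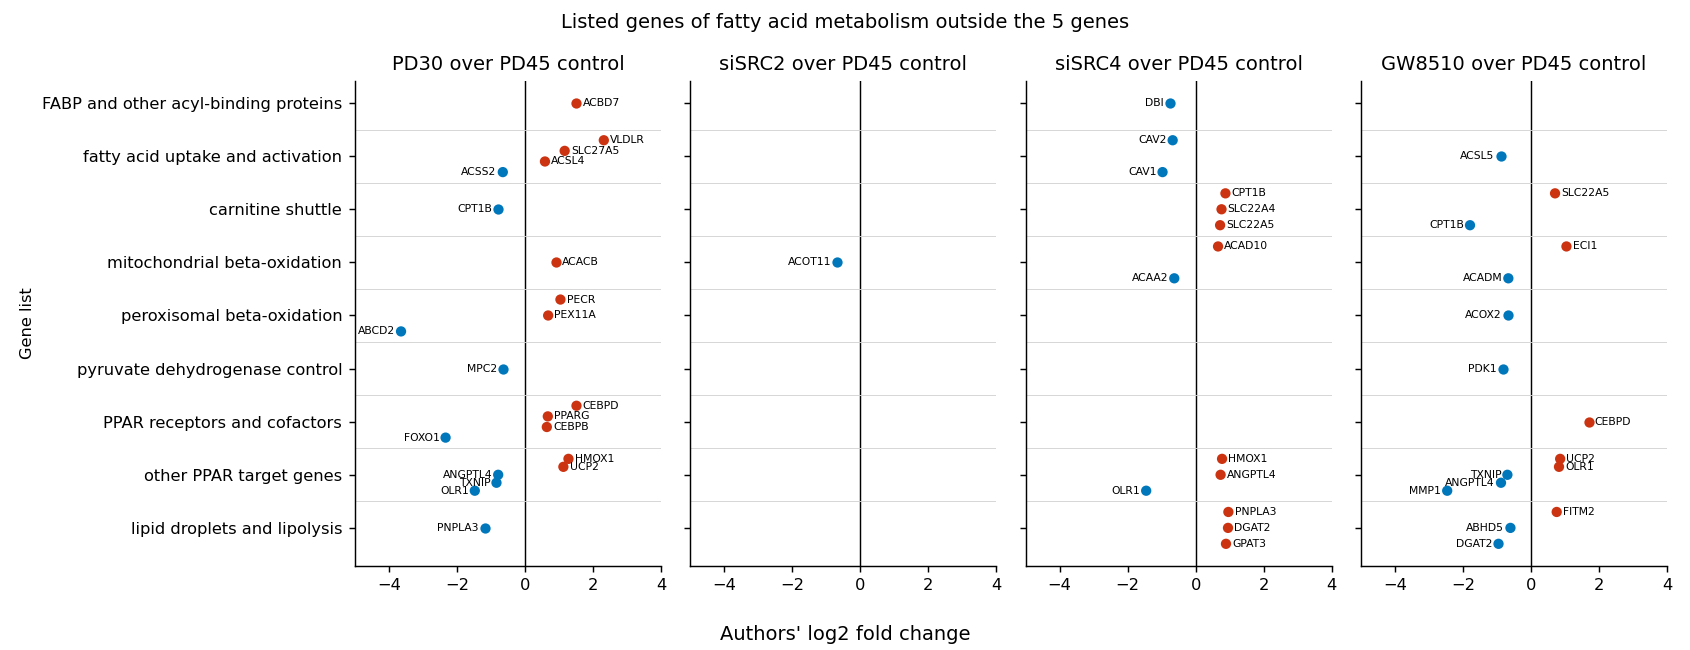
Authors' log2 fold change (horizontal axis) of every listed gene in 9 lists of fatty acid handling, for PD30, siSRC2, siSRC4 and GW8510 over the PD45 control, with red points higher and blue points lower. Only ACOT11 is listed for siSRC2, and CPT1B, ANGPTL4, OLR1, PNPLA3 and DGAT2 lie on different sides of 0 in different groups.

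Markers of other cells that use these genes were examined in the same tables. Of 9 adipocyte markers, PPARG and CFD were listed for PD30, both higher, with CFD at 6.13 ± 1.51 against 2.74 ± 0.533, and none was listed in the other tables. Of 10 endothelial markers, TEK and TIE1 were listed as higher for PD30 and TEK for siSRC2. TEK stood at 29.7 ± 1.43 in PD30 cells and 12.5 ± 1.43 with siSRC2, against 7.39 ± 1.16, and TIE1 at 0.4, 0.49 and 2.89 in PD30 cells against 0.16, 0 and 0, with library 3 far above the other PD30 libraries. Of 10 macrophage markers, CD68, also a lysosomal protein of other cells, was listed as lower with GW8510 (28.1 ± 2.84 against 48.0 ± 5.81), and of 11 striated muscle markers none was listed in any table. The defining markers ADIPOQ, PLIN1, PECAM1, CDH5, PTPRC and MYH7 have no values here. Of 12 fibroblast markers, 4 were listed as higher and 1 as lower for PD30, 1 as higher for siSRC2, 1 as lower for siSRC4, and 1 as higher and 2 as lower for GW8510. VIM stood at 5407 ± 219 in PD30 cells against 3225 ± 104, S100A4 at 94.2 ± 10.8 in PD30 cells against 448 ± 27.3, and FN1 at 1325 ± 94.6 with GW8510 against 3530 ± 822 in the PD45 control. COL3A1 was higher in PD30 cells (377 ± 18.5), with siSRC2 (225 ± 25.3) and with GW8510 (202 ± 29.7), against 115 ± 6.82. PDGFRA was higher in PD30 cells (40.2 ± 2.69 against 27.0 ± 1.78). POSTN was higher in PD30 cells (11.1 ± 1.34) and lower with siSRC4 (2.41 ± 0.765) and GW8510 (1.63 ± 0.317), against 5.46 ± 1.24. Marker genes are given here as the authors listed them. Of all genes tested, 15.3% were listed for PD30, 2.64% for siSRC2, 8.77% for siSRC4 and 11.8% for GW8510. The marker lists are short, so no cell type is read from these counts. The part of other cells in the FABP4, FABP3 and CD36 differences was not tested.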

How the data were processed

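RNA sequencing libraries of WI-38 cells were analysed from 4 tables, each comparing one group with the PD45 control. Tools named in the submitters' processing notes, with no roles, are HISAT2, StringTie, RSEM, CASAVA, edgeR and DESeq2. The build named there is GRCm38, a mouse assembly, although gene identifiers are human. Sequence coordinates are RefSeq's, not the files'. A gene's row has a normalized signal per library made by the authors, the deposited fold ratio and its log2 value, and the deposited p-value and adjusted p-value, per the file headers. Columns were assigned by library name: the table whose mean column is headed siSRC2 holds siSRC4 libraries, and the one headed siSRC holds siSRC2 libraries.

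The number of genes tested was read from the ratio of adjusted p to p in each first row, assuming that this row holds the smallest p: 18575 for PD30, 12549 for siSRC2, 14598 for siSRC4 and 15574 for GW8510. Means, SD and ratios used Python 3.11.15 and pandas 2.3.3. The limma 3.58.1 re-test in R 4.3.3 used log2(signal + 1), a mean-variance trend and a minimum mean signal of 1, and adjusted over all genes of a table that entered. It was tested on simulated data with the same spread for every gene and with unchanged genes among them. The real tables hold only called genes of unequal spread, so that check does not vouch for the re-test here. Differences of log2(signal + 1) understate changes of low genes. All limma values and counts are from the fit without pairing, also for siSRC4, unless the block is named. Pairing by number was considered where every same-numbered pair's deviations correlated above 0.1. This held for siSRC4 (0.12, 0.11 and 0.14), so its block fit is given as an alternative where it changes a call.

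The members and lists were chosen with earlier results of these data known. Named were the 5 genes, every listed gene of 4 lists (acyl-binding, carnitine shuttle, pyruvate dehydrogenase, PPAR receptors and cofactors), and up to 3 per table and list of the others with the largest fold, at a higher group mean of 1 or more. Alternatives covered medians, pseudocounts, filters, the trend, the block and each library left out. No protein sequences were used.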

Additional observations from a re-analysis of the deposited data

How the results depend on the processing

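Every one of the 13 signal ratios of the 5 genes kept its direction when medians replaced means, when the median shift to the authors' fold was applied, with a pseudocount of 1 and with any one library left out. Of these alternative values, 116 moved by less than the SD of the ratio. The 1 exception was CD36 in PD30 cells, whose ratio was 0.215 with a pseudocount of 1 and 0.115 without, because its signal there is below 1. Medians and single omissions move a mean of 3 libraries by less than its SD, so they could hardly fail this measure. Where groups did not overlap, the direction could not reverse either. These values therefore describe the spread and are no evidence that the differences are robust. With one library left out, the CD36 ratio ran from 2.87 to 3.43 for GW8510, the FABP3 ratio from 0.499 to 0.705 for GW8510, and the FABP4 ratio from 0.309 to 0.330 for siSRC4. At an authors' fold of at least 2, 11 of 21 genes of the fatty acid lists remained for PD30, 0 of 1 for siSRC2, 1 of 14 for siSRC4 and 4 of 16 for GW8510. The number passing the limma re-test ran from 16 to 17 for PD30, 0 to 1 for siSRC2, 13 to 14 for siSRC4 and 13 to 14 for GW8510 with one library left out, and without a signal minimum it was 18 for PD30. With the replicate block it was 16, 1, 14 and 15. The block is only a number shared by libraries for PD30, siSRC2 and GW8510, where not every pair's deviations correlated above 0.1 (-0.11 to 0.01 for PD30, 0.09 to 0.22 for siSRC2 and 0.02 to 0.11 for GW8510), and with it UCP2 passed for GW8510 (limma, adjusted p = 0.0340). Depth is unknown, so differences of genes with signals near 0 cannot be judged against counting error.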
